A study of Mus musculus with 12 samples.

Results

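Cxcr4, Ccr7, S1pr1, Cd69, Klf2 and Foxo1 are 6 genes that together set where a developing T cell goes and when it leaves the thymus. They were taken by symbol from the deposited expression tables, and all 6 were found among 23366 gene symbols. Their RNA was measured by ribosomal-RNA-depleted RNA-seq in Beko cells, a mouse pre-T cell line, in 12 libraries that form 6 groups of 2. Cells received 10 µg/ml DAPT or DMSO for 24 h, 0.01 µg/ml apicidin or DMSO for 24 h, or an shRNA vector against Hdac3 or a scrambled vector, with RNA taken 96 h after puromycin. DAPT is a gamma-secretase inhibitor, which prevents the cleavage that activates Notch receptors; apicidin is a histone deacetylase inhibitor; and Hdac3 encodes a histone deacetylase of nuclear co-repressor complexes. All groups share 1 cell line, and each treatment has control libraries of its own. Nothing in the labels ties the 2 replicates of a group to separate cultures, and p-values therefore reflect only library-to-library spread, possibly of technical origin.

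CXCR4, the receptor for the chemokine CXCL12, keeps immature thymocytes in the cortex and acts with the pre-T cell receptor at beta-selection. CCR7, the receptor for CCL19 and CCL21, draws positively selected cells into the medulla, and S1PR1 senses the sphingosine 1-phosphate gradient that leads mature cells out into the blood. CD69, an early activation antigen and C-type lectin, binds S1PR1 and removes it from the cell surface. KLF2, a zinc-finger transcription factor, activates S1pr1, and FOXO1, which AKT signalling keeps out of the nucleus, activates Klf2, Ccr7 and Il7r. Mature single-positive thymocytes with high Klf2, S1pr1 and Ccr7 and low Cd69 are the cells ready to leave.

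The RefSeq promoter table (GRCm38.p6) held 3 of the 6 genes, and the 250 bases before each RefSeq start are printed because both transcription factors of the set changed in these cells while Cxcr4 stayed near its control level. Each sequence reads 5′ to 3′ on the strand of its gene. Capitals mark GC boxes (GGGCGG, here as its reverse complement) in Cxcr4, CCAAT boxes (here as the reverse complement) in Foxo1, and a MEF2 motif in Klf2. Cxcr4 lies at chr1:128592300-128592549 (minus strand), Foxo1 at chr3:52268087-52268336 (plus strand) and Klf2 at chr8:72318812-72319061 (plus strand).
Cxcr4: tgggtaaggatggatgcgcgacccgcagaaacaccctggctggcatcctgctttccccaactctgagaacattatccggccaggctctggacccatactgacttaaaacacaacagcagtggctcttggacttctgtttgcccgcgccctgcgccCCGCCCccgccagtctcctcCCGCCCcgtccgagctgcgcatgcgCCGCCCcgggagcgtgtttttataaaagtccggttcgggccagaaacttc
Foxo1: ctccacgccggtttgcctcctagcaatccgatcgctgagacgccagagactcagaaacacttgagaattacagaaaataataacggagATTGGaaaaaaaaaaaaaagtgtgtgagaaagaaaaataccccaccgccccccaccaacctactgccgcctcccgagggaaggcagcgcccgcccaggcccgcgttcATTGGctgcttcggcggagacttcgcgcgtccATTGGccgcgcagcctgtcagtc
Klf2: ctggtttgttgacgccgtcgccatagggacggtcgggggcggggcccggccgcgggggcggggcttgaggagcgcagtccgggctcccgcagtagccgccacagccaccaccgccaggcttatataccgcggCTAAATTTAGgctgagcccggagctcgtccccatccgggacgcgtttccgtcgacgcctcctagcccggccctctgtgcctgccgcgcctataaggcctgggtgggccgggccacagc
Both strands were searched, and the share of all 27025 promoter windows of this length with a match is given for each motif. The Klf2 window held 1 MEF2 match, 118 to 109 bases before the start, a motif found in 0.518% of windows; MEF2 factors activate Klf2 downstream of the kinase ERK5. Cxcr4 had 3 GC boxes and Foxo1 and Klf2 had 2 each, against 32.9% of windows with at least 1. Foxo1 had 3 CCAAT boxes (34.5% of windows), and Cxcr4 and Klf2 had 1 KLF motif each (CACCC, 51.3%). The GENCODE M21 annotation starts Klf2 at chr8:72319033, inside the printed window. By that annotation the Klf2 KLF motif, 19 to 15 bases before the RefSeq start, lies within the transcript. None of the 3 windows held the letters of the FOXO motif (TGTTTAC, 3.09%), the RBPJ motif of Notch-regulated genes (TGGGAA, 21.5%) or the AP-1 motif (TGANTCA, 6.87%). A match describes letters and is not a measured binding site.

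The DAPT experiment was sequenced deepest, at 37237080 to 42815304 gene reads per library, against 21766984 to 29652001 for apicidin and 24673559 to 29004315 for the hairpins. Hdac3 stood at 774 and 819 normalized reads in the shHdac3 libraries against 2012 and 1930 with the scrambled vector, a log2 difference of -1.31 ± 0.05 (SE). All 14 pre-T markers had reads in every library. Of markers of other cells, 3 to 5 of 6 B cell genes were at 0 in each library. So were 5 of 7 erythroid genes, globins included. The B cell list summed to 20.4 to 23.5 normalized reads with DAPT against 14.7 to 20.5. It summed to 1.82 to 13.1 with apicidin against 17.6 to 18.2, and to 9.26 to 12.5 with shHdac3 against 20.9 to 23.5. The erythroid list summed to 208 to 248 with DAPT against 219 to 242. It summed to 121 to 139 with apicidin against 125 to 165, and to 82.4 to 103 with shHdac3 against 128 to 132. Myeloid markers, mostly Itgam and Csf3r with 1 to 4 of 8 genes at 0, summed to 878 to 988 with DAPT against 614 to 653, to 993 to 1049 with apicidin against 714 to 768, and to 590 to 598 with shHdac3 against 600 to 607; Itgam rose with DAPT (1.04 ± 0.09) and apicidin (0.58 ± 0.07). Mast cell markers summed to 3847 to 3860 with DAPT against 1478 to 1485, to 1927 to 2048 with apicidin against 1612 to 1762, and to 5228 to 5241 with shHdac3 against 2350 to 2455. Nearly all of this was Cpa3 and Kit, and Fcer1a, Mcpt4 and Tpsb2 were at 0. The stromal and endothelial sum, nearly all Pecam1 with Cdh5 at 0, was also higher with each treatment (4585 to 4617 against 2141 to 2315; 3199 to 3256 against 2129 to 2155; 3320 to 3582 against 1980 to 2126). The part of these markers in the results below was not tested. In bulk libraries, fewer cells that express a gene and less RNA per cell cannot be told apart.

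The tests below are limma on log2(normalized reads + 1), adjusted over all genes tested by the Benjamini-Hochberg method with a threshold of 0.05. Cxcr4, Cd69, Klf2 and Foxo1 passed the filter on low values in all 3 comparisons, whereas Ccr7 and S1pr1 did not. DAPT raised Cd69 and Klf2, apicidin raised Cd69 and Foxo1, and shHdac3 lowered Klf2 and raised Foxo1. Thus 2 of the 4 tested members passed in each comparison, beside 43.2% of all genes with DAPT, 38.1% with apicidin and 41.9% with shHdac3. Passing was thus common among all genes, and the members' shares lie near that background. Groups of 2 that do not overlap were also common: 69.9% of tested genes with DAPT, 69.0% with apicidin and 69.2% with shHdac3.

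**Figure D1:**
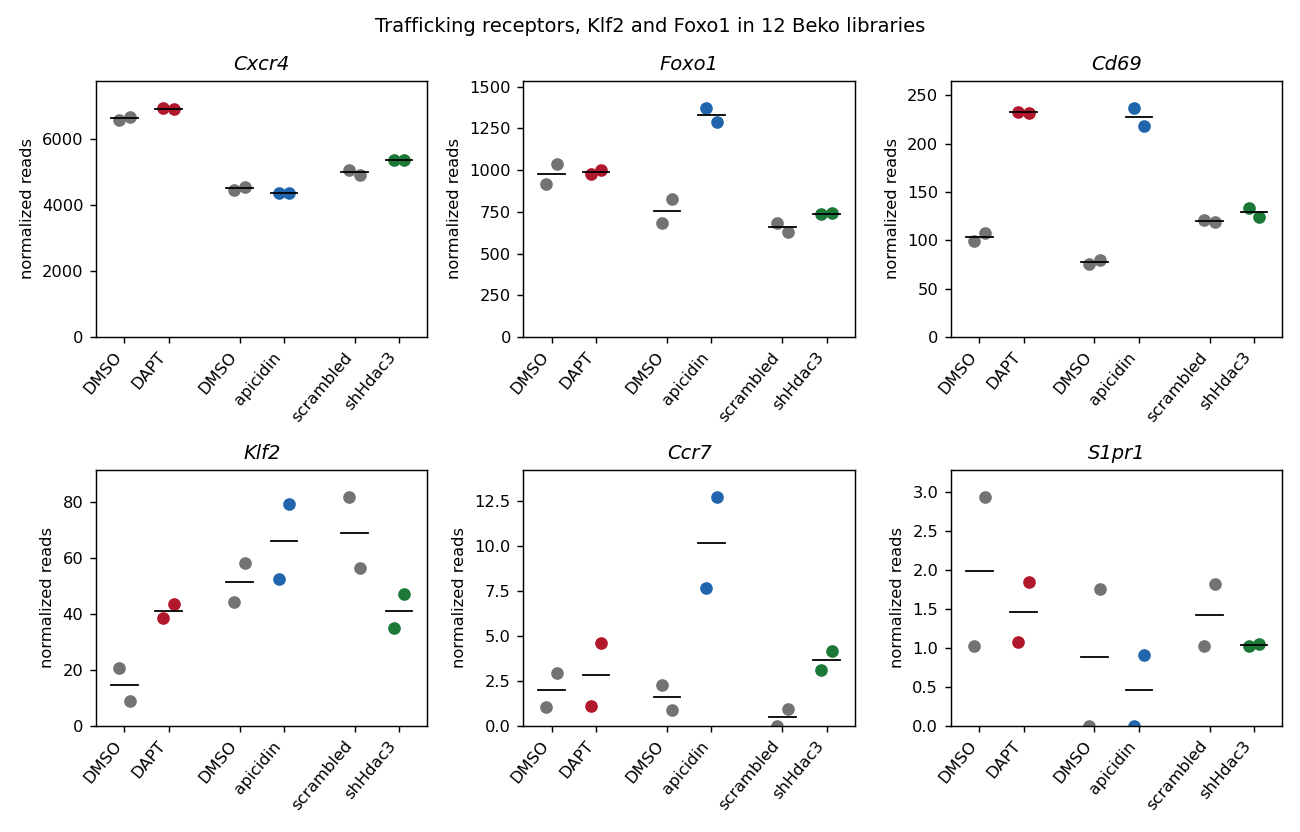
Normalized reads (y axes, linear from 0, scaled separately for each gene) of the 6 genes in the 12 libraries, 1 panel per gene and 1 point per library, with a line at the mean of each group of 2; controls are grey and treated libraries coloured. Cd69 is higher in both DAPT and both apicidin libraries than in their controls, Foxo1 separates most with apicidin, Klf2 lies above its controls with DAPT and below them with shHdac3, and S1pr1 has at most 3 reads in each library.

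In the control libraries the 6 genes spanned a wide range. Levels were compared between genes as RPKM, reads per kilobase of exon (GENCODE M21 lengths) scaled to the gene reads of the library. Cxcr4 stood at 89.1 to 106 RPKM in the 6 control libraries, with a median of 97.4. Foxo1 followed at 2.60 to 3.65 (median 2.98), then Cd69 at 1.44 to 2.71 (median 1.78) and Klf2 at 0.118 to 1.68 (median 1.05). Ccr7 at 0 to 0.0456 and S1pr1 at 0 to 0.0239 lay far below. The order Cxcr4, Foxo1, Cd69, Klf2 held in 6 of 6 control libraries. Cxcr4 exceeded Foxo1 by 26.5 to 37.5 times within a library, Foxo1 exceeded Cd69 by 1.03 to 2.03 times, and Cd69 exceeded Klf2 by 1.49 to 13.4 times. The ranges of Foxo1 and Cd69 overlap across libraries, as do those of Cd69 and Klf2 and those of Ccr7 and S1pr1. Cxcr4 ranked at the 93.6th to 95.4th percentile of genes with reads, by normalized reads in the control groups.

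**Figure D2:**
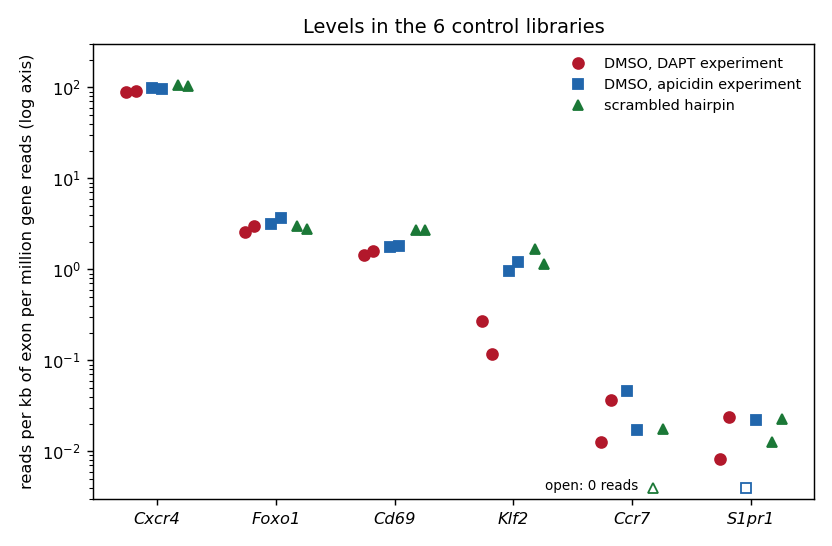
RPKM over gene reads (y axis, logarithmic) for the 6 genes in the 6 control libraries, 1 point per library, with open symbols for libraries with 0 reads. Cxcr4 lies between 89.1 and 106, Foxo1, Cd69 and Klf2 lie from 0.118 to 3.65, and Ccr7 and S1pr1 do not exceed 0.0456.

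Cxcr4 held its high level under all 3 treatments, with small differences that did not pass the test. With DAPT the libraries had 6920 and 6897 normalized reads against 6570 and 6667 with DMSO. Both DAPT libraries lay above both controls, and the log2 difference was 0.06 ± 0.04 (SE; 95% interval -0.01 to 0.14; adjusted p = 0.181). With apicidin the values were 4350 and 4362 against 4457 and 4554. Both apicidin libraries lay below both controls by a log2 difference of -0.05 ± 0.04 (-0.13 to 0.04; adjusted p = 0.367). With shHdac3 the values were 5355 and 5346 against 5061 and 4908. Both hairpin libraries lay above both controls, at 0.10 ± 0.04 (0.01 to 0.19; adjusted p = 0.0575). None of the 3 intervals reaches beyond 0.19 in size on the log2 scale. Other scalings changed 2 of these calls: upper-quartile factors gave 0.10 for DAPT (adjusted p = 0.0273), and TMM factors gave 0.10 for shHdac3 (adjusted p = 0.0480).

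Ccr7 was near silent in the controls and rested on few reads everywhere. Apicidin libraries held 7 and 14 Ccr7 reads against 2 and 1 in DMSO. Both apicidin libraries lay above both controls, at 7.66 and 12.7 normalized reads against 2.27 and 0.879. The 21 against 3 summed reads, set against the summed size factors, gave a ratio of 7.01 with an exact 95% interval of 2.09 to 36.7 that covers counting error only. shHdac3 libraries held 3 and 4 reads against 0 and 1. This separation by a handful of reads gave a ratio of 7.54 with an interval of 0.969 to 340. DAPT libraries held 1 and 5 reads against 1 and 3, which overlap (ratio 1.49, interval 0.352 to 7.15). The filter on low values excluded Ccr7; limma without the filter gave log2 differences of 2.14 ± 0.55 for apicidin (adjusted p = 0.00432) and 1.73 ± 0.57 for shHdac3 (adjusted p = 0.0486), and edgeR without the filter, added after the data were seen, gave adjusted p-values of 0.0102 and 0.199. Leaving out 1 library at a time gave log2 differences of 1.74 to 2.54 for apicidin and 1.27 to 2.20 for shHdac3. Such a fit leaves 1 library in a group, so it cannot show whether either call rests on a single library.

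S1pr1, the exit receptor, was not measurable in these cells. The libraries held 1 and 2 reads with DAPT against 1 and 3, 0 and 1 with apicidin against 0 and 2, and 1 and 1 with shHdac3 against 1 and 2. No library exceeded 3 reads, the upper limit that a count of 0 allows, so no fold is given. In a library of these depths, that limit corresponds to 2.64 to 3.41 normalized reads.

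The other S1P receptors differed in level from S1pr1. S1pr2, which couples to RhoA-activating G proteins, and S1pr4, a receptor of lymphoid and myeloid cells, carried 590 and 227 normalized reads on average in DMSO of the DAPT experiment. S1pr4 rose with DAPT by 0.62 ± 0.10 and with apicidin by 0.33 ± 0.11 on the log2 scale, and measured 0.24 ± 0.13 with shHdac3, which did not pass. S1pr2 rose with DAPT by 0.19 ± 0.07; its values of 0.17 ± 0.07 with apicidin and 0.05 ± 0.08 with shHdac3 did not pass. S1pr5 was tested with DAPT alone (1.78 ± 0.80, not passed), and S1pr3 had at most 1 read. In all, 2 of 3 tested receptors rose with DAPT and 1 of 2 with apicidin, and the 2 tested with shHdac3 have the values above. Over all genes, 43.2%, 38.1% and 41.9% passed with DAPT, apicidin and shHdac3.

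Cd69, whose product opposes S1PR1, was raised more than 2-fold by both inhibitors and not detectably by the hairpin. With DAPT it had 233 and 231 normalized reads against 99.5 and 108 with DMSO. The DAPT libraries lay far above both controls, 2.23-fold higher (log2 difference 1.16 ± 0.13; 95% interval 0.90 to 1.42; adjusted p = 9.99e-08). With apicidin it had 236 and 218 normalized reads against 75.0 and 79.1. Both libraries again lay far above both controls, 2.92-fold higher (1.55 ± 0.14; 1.26 to 1.83; adjusted p = 1.10e-07). With shHdac3 it had 134 and 124 normalized reads against 120 and 119. Both hairpin libraries lay above the controls by a margin smaller than the gap between themselves, and the log2 difference of 0.10 ± 0.15 (-0.19 to 0.40; adjusted p = 0.605) did not pass.

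Klf2 went up with DAPT and down with the hairpin, at low levels throughout. With DAPT it had 38.5 and 43.5 normalized reads against 20.5 and 8.81 with DMSO. Both DAPT libraries lay above both controls, whose own values differed by more than 2-fold, and the rise was 2.88-fold (log2 difference 1.53 ± 0.34; 0.82 to 2.24; adjusted p = 0.000917). Without the second DMSO library it was 0.96 (adjusted p = 0.0119), and that library, at 8.81, was the 1 of 4 below the filter value of 10. With apicidin it had 52.5 and 79.1 normalized reads against 44.3 and 58.0. These groups overlap, and 0.34 ± 0.23 (-0.14 to 0.82; adjusted p = 0.257) did not pass, with 0.049 to 0.63 when 1 library was left out. With shHdac3 it had 35.0 and 46.9 normalized reads against 81.7 and 56.3. Both hairpin libraries lay below both controls, 1.66-fold lower (-0.73 ± 0.23; -1.20 to -0.26; adjusted p = 0.00934). That fall did not pass without the first hairpin library (-0.52, adjusted p = 0.092), without the first scrambled library (-0.47, adjusted p = 0.283), with no filter on low values (adjusted p = 0.0658) or in the authors' deposited table (-0.75, adjusted p = 0.149).

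The starting level of Klf2 was not the same in the 3 sets of controls. In RPKM it was 0.272 and 0.118 in DMSO of the DAPT experiment, 0.952 and 1.21 in DMSO of the apicidin experiment, and 1.68 and 1.16 with the scrambled vector. The DAPT libraries, at 0.523 and 0.594, were above their own controls and below every control library of the other experiments. RPKM is scaled to the gene reads of each library and does not use the authors' separate normalization of each experiment. The difference between the sets of controls was not tested.

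Foxo1 rose clearly with apicidin, slightly with the hairpin, and not measurably with DAPT. With apicidin it had 1370 and 1287 normalized reads against 682 and 825 with DMSO. Both apicidin libraries lay well above both controls, 1.77-fold higher (log2 difference 0.82 ± 0.07; 0.67 to 0.97; adjusted p = 1.09e-07). With shHdac3 it had 735 and 744 normalized reads against 686 and 628. Both hairpin libraries lay just above both controls (0.17 ± 0.07; 0.04 to 0.31; adjusted p = 0.0357). With DAPT it had 977 and 1001 normalized reads, between the 919 and 1037 of the DMSO libraries (0.02 ± 0.06; -0.11 to 0.15; adjusted p = 0.839). The small rise with shHdac3 did not pass without either hairpin library (adjusted p = 0.0731 and 0.105), without the second scrambled library (0.11, adjusted p = 0.330), with no filter (adjusted p = 0.0724), with upper-quartile factors (0.13, adjusted p = 0.109) or in the authors' deposited table (0.17, adjusted p = 0.281). Of the exonic bases of Foxo1, 7.78% overlap Gm20402 on the opposite strand, and the strand setting of the counting is not given in the sources used here, so reads of the pair cannot be told apart over that stretch.

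**Figure D3:**
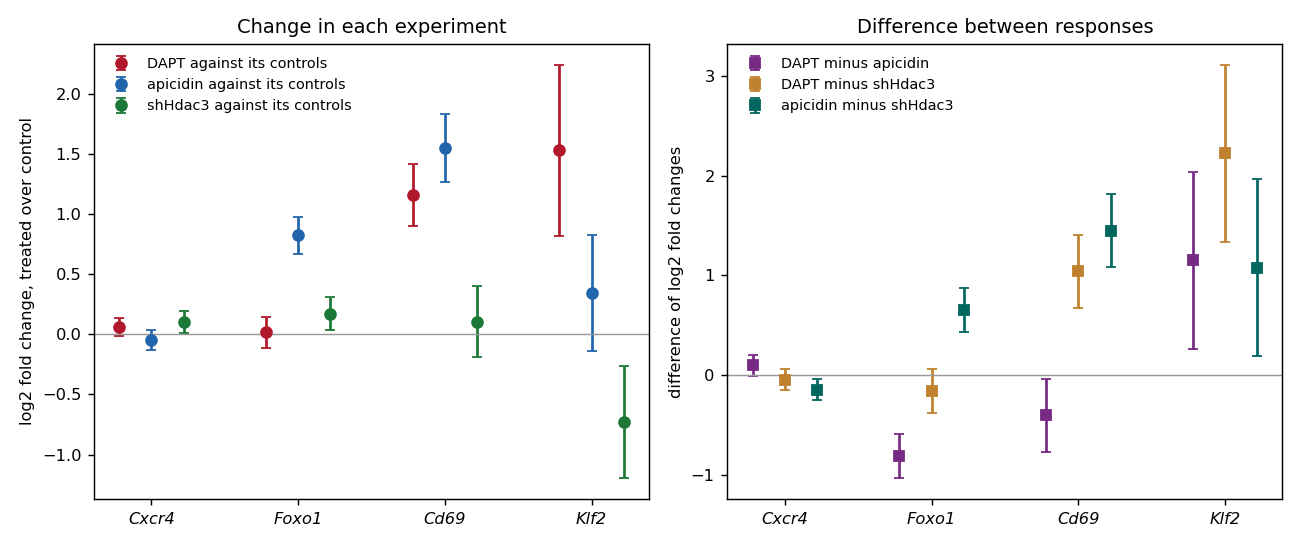
Left, log2 fold change of treated over control (y axis, limma on log2 of normalized reads + 1) for 4 genes under each treatment; right, the difference of those changes between pairs of treatments; points are estimates and bars are 95% intervals. Cd69 is above 0 with DAPT (1.16) and apicidin (1.55), Klf2 lies on opposite sides of 0 with DAPT (1.53) and shHdac3 (-0.73), and the largest difference plotted is that of Klf2 between DAPT and shHdac3 (2.23).

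Differences between responses were tested directly over all 12 libraries. Each treatment was measured in an experiment of its own, so a difference between treatments cannot be told apart from one between experiments. The Cd69 response was larger with DAPT than with shHdac3 by 1.04 ± 0.18 (adjusted p = 3.81e-05) and larger with apicidin than with shHdac3 by 1.45 ± 0.18 (adjusted p = 1.28e-06). Between the inhibitors it differed by -0.41 ± 0.18 (DAPT minus apicidin; 95% interval -0.77 to -0.04; adjusted p = 0.0765), which did not pass. The Klf2 response to DAPT exceeded that to shHdac3 by 2.23 ± 0.43 (adjusted p = 0.00016) and that to apicidin by 1.15 ± 0.43 (adjusted p = 0.0384). The second of these did not pass with a pseudocount of 5 (0.88, adjusted p = 0.0631) or when any of 5 single libraries was left out, as listed in the closing section. Apicidin minus shHdac3 was 1.08 ± 0.43 for Klf2 (adjusted p = 0.0541).

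Foxo1 responded more to apicidin than to DAPT, with DAPT minus apicidin at -0.82 ± 0.11 (adjusted p = 2.29e-06), and more to apicidin than to shHdac3, by 0.66 ± 0.11 (adjusted p = 4.62e-05). DAPT minus shHdac3 was -0.16 ± 0.11 (adjusted p = 0.228). Cxcr4 differed between apicidin and shHdac3 by -0.15 ± 0.05 (adjusted p = 0.0304), a difference that did not pass with upper-quartile factors (-0.12, adjusted p = 0.0756) or when any of 6 of the 8 single libraries was left out. Passing was common here too: 37.1% of genes for DAPT minus apicidin, 46.3% for DAPT minus shHdac3 and 35.6% for apicidin minus shHdac3, against 2, 2 and 3 of the 4 members.

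The values of the 6 genes were also compared with each other over the 12 libraries, after centring log2 values within each experiment; this is a description, since libraries share treatments and depth. Cd69 and Foxo1 had a Pearson r of 0.78 and Cd69 and Klf2 one of 0.54, whereas Klf2 and Foxo1 had 0.08. Cxcr4 had between -0.11 and 0.15 with each of the others. Among 10461 genes, the most similar to Cd69 were Rasgrp1, an activator of Ras in thymocytes (r = 0.98; log2 differences 0.75, 0.76 and 0.03 with DAPT, apicidin and shHdac3), and Arhgap1 (r = 0.98; 0.24, 0.25 and 0.02). For Foxo1 they were Efr3b (r = 0.99; 0.06, 0.63 and 0.13) and Scd2, a fatty acid desaturase (r = 0.96; 0.03, 0.37 and 0.12). For Klf2 they were Shkbp1 (r = 0.95; 0.22, 0.05 and -0.16) and the autophagy kinase Ulk1 (r = 0.94; 0.25, 0.15 and -0.07), and for Cxcr4 they were Tada2b (r = 0.97) and Ggta1 (r = 0.96). For Ccr7 and S1pr1 likeness was not read because of their few reads.

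Several other chemokine receptors changed by more than Cxcr4 did. Of 21 listed, 8 were tested with DAPT, of which 4 rose and 4 did not pass. With apicidin 5 of 9 rose and 4 did not pass, and with shHdac3 3 of 9 rose, 1 fell and 5 did not pass. The shares that passed, 50%, 55.6% and 44.4%, stand beside 43.2%, 38.1% and 41.9% of all genes. The median log2 difference was 0.56, 0.78 and -0.08, beside medians within 0.002 of 0 over all genes tested. Ccr9, the receptor for CCL25 of the thymic epithelium, had the largest rise, from a mean of 463 to 4077 normalized reads with DAPT (3.14 ± 0.05), and rose with apicidin (1.21 ± 0.05) and shHdac3 (1.23 ± 0.08). Cxcr6, the CXCL16 receptor, rose by 1.05 ± 0.10, 0.93 ± 0.09 and 0.27 ± 0.11. Ccr2 rose with apicidin (1.93 ± 0.41) and shHdac3 (1.13 ± 0.30) to means of 31.5 and 41.4 normalized reads, and Ccr8 rose with apicidin (1.78 ± 0.33).

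On the side of ligands and their breakdown, 6 of 14 listed genes were tested. Cxcl12, Ccl19 and Ccl21a, the ligands of CXCR4 and CCR7, had at most 2.1 normalized reads in any library. Of the tested genes, 2 rose with DAPT, 1 rose and 1 fell with apicidin, and 3 rose with shHdac3 (medians -0.03, 0.00 and 0.24). As shares, 33.3%, 33.3% and 50% passed, beside 43.2%, 38.1% and 41.9% of all genes. Sgpl1, the lyase that degrades sphingosine 1-phosphate, rose with each treatment, by 0.30 ± 0.06, 0.43 ± 0.06 and 0.30 ± 0.06. Ppap2b, a lipid phosphate phosphatase that removes extracellular sphingosine 1-phosphate, rose with DAPT (1.53 ± 0.12) and shHdac3 (0.36 ± 0.14) and fell with apicidin (-0.63 ± 0.14). Sgpp1, a sphingosine 1-phosphate phosphatase, rose with shHdac3 (0.19 ± 0.06) and measured -0.03 ± 0.05 with DAPT and -0.09 ± 0.06 with apicidin.

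Of the other KLF family genes, 6 of 10 tested rose with DAPT and 4 did not pass (median 0.25). With apicidin 4 of 11 rose and 7 did not pass (0.12). With shHdac3 1 of 10 rose, 4 fell and 5 did not pass (-0.26). The shares that passed with DAPT, apicidin and shHdac3 were 60%, 36.4% and 50%, beside 43.2%, 38.1% and 41.9% of all genes. Klf11, a TGF-beta-inducible repressor, rose with DAPT (0.21 ± 0.05) and fell with shHdac3 (-0.83 ± 0.08), as did Klf7 (0.33 ± 0.11 and -0.58 ± 0.14). Klf4, a quiescence factor of T cells, was the family gene that rose with shHdac3 (0.97 ± 0.15). Klf12, counted among the rises with apicidin, reached the filter through the apicidin libraries alone (means of 16.6 against 3.90 normalized reads), so it had to differ to be tested.

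Among 10 tested regulators of Klf2, 4 rose and 1 fell with DAPT, 3 rose with apicidin, and 5 fell with shHdac3, while 5, 7 and 5 did not pass (medians 0.11, 0.12 and -0.16). As shares, 50%, 30% and 50% passed, beside 43.2%, 38.1% and 41.9% of all genes. Mef2a, 1 of the MEF2 factors, rose with DAPT (0.49 ± 0.14) and fell with shHdac3 (-0.46 ± 0.16), with 0.16 ± 0.13 for apicidin. The other tested MEF2 genes did not share this pattern. Mef2d measured 0.12 ± 0.05 with DAPT and -0.01 ± 0.06 with shHdac3, and rose with apicidin (0.16 ± 0.06). Mef2b passed with none (0.04 ± 0.08, -0.02 ± 0.11 and -0.21 ± 0.11 with DAPT, apicidin and shHdac3). Mapk7, which encodes ERK5, fell with shHdac3 (-0.29 ± 0.07) and measured 0.07 ± 0.06 and 0.12 ± 0.06 with DAPT and apicidin. Map3k2, a kinase upstream of ERK5, rose with DAPT (0.15 ± 0.05) and apicidin (0.28 ± 0.05). Wwp1, a ubiquitin ligase that acts on KLF2, fell with DAPT (-0.24 ± 0.05) and shHdac3 (-0.22 ± 0.06).

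The FOXO pathway list rose in most of its tested genes: 9 of 13 rose and 4 did not pass with DAPT, 7 rose and 3 fell with apicidin, and 8 rose and 1 fell with shHdac3 (medians 0.29, 0.18 and 0.14). The shares that passed in either direction were 69.2%, 76.9% and 69.2%, beside 43.2%, 38.1% and 41.9% of all genes. Inpp5d, which encodes the lipid phosphatase SHIP1, rose with all 3 treatments, by 0.65 ± 0.05, 0.51 ± 0.05 and 0.26 ± 0.06. Sgk1, a kinase that phosphorylates FOXO proteins, rose by 0.20 ± 0.06, 0.86 ± 0.08 and 0.50 ± 0.09. Foxo6 fell with apicidin (-0.71 ± 0.27) at a mean of 21.6 against 35.8 normalized reads.

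The 16 listed target genes of FOXO1 and KLF2, all tested, did not follow 1 direction. With DAPT 10 rose and 2 fell (median 0.34), with apicidin 10 rose and 4 fell (0.30), and with shHdac3 4 rose and 8 fell (-0.24). As shares, 75%, 87.5% and 75% passed, beside 43.2%, 38.1% and 41.9% of all genes. Il6ra, an interleukin 6 receptor subunit, rose with DAPT (2.27 ± 0.16) and fell with shHdac3 (-1.43 ± 0.43). Irs2, an insulin receptor substrate, rose with apicidin (0.29 ± 0.08) and fell with shHdac3 (-1.02 ± 0.08). Rag1 and Rag2, the recombinase genes, which also stand on the pre-T list, fell with each treatment (Rag1 at -0.55 ± 0.04, -0.92 ± 0.05 and -0.69 ± 0.05; Rag2 at -1.14 ± 0.07 with DAPT and -0.45 ± 0.08 with shHdac3). Il7r, the interleukin 7 receptor alpha chain, is named here after its values were seen because FOXO1 activates it. It rose with DAPT (0.36 ± 0.08) and shHdac3 (0.55 ± 0.07) and fell with apicidin (-0.88 ± 0.10).

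**Figure D4:**
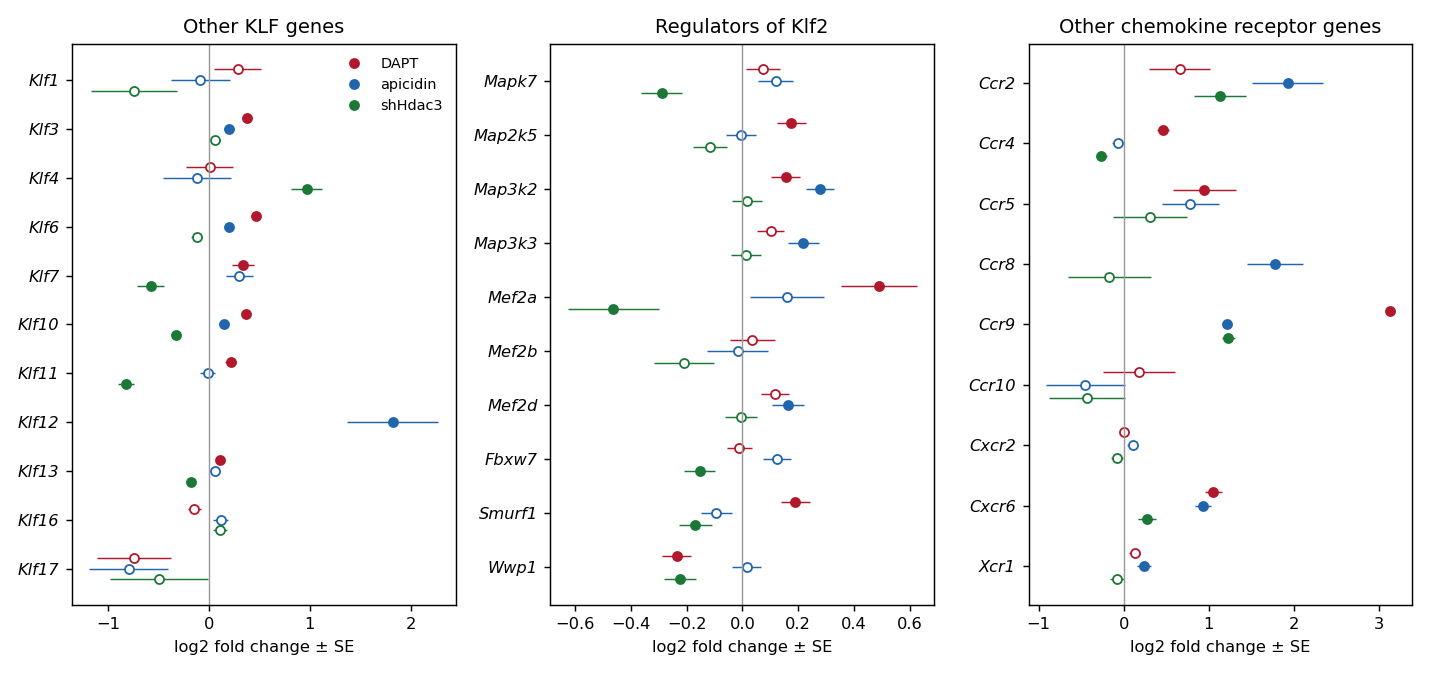
Log2 fold change ± SE (x axes, limma) of each tested gene of 3 lists, the other KLF genes, the regulators of Klf2, and the other chemokine receptors, with 1 colour per treatment; filled points have an adjusted p under 0.05 and open points do not. Klf7 and Klf11 are filled on opposite sides of 0 with DAPT and shHdac3. Mef2a is likewise (0.49 and -0.46), whereas Mef2b and Mef2d are open with both. Ccr9 is filled above 0 with every treatment.

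Markers of T cell stage moved alongside. Of 14 pre-T markers, 9 fell with DAPT, 10 with apicidin and 9 with shHdac3, while 5, 2 and 1 rose (medians -0.33, -0.37 and -0.26). Ptcra, the pre-T cell receptor alpha chain and a Notch target, fell in each comparison (-2.32 ± 0.04, -1.67 ± 0.05 and -1.23 ± 0.04 on the log2 scale). Of 13 genes listed as markers of more mature thymocytes, 10 rose and 1 fell with DAPT (median 0.46). With apicidin 6 rose and 1 fell (0.14), and with shHdac3 3 rose and 7 fell (-0.16). Of the pre-T markers 100%, 85.7% and 71.4% passed with DAPT, apicidin and shHdac3, and of the mature list 84.6%, 53.8% and 76.9%. Over all genes the shares were 43.2%, 38.1% and 41.9%. The mature list includes Cd24a, which is high on immature thymocytes. Cd24a was the gene that fell with DAPT (-0.28 ± 0.04), and it also fell with shHdac3 (-0.22 ± 0.05). Cd4 rose with DAPT (0.46 ± 0.04) and fell with apicidin (-0.35 ± 0.04) and shHdac3 (-1.22 ± 0.05), and Zbtb7b, the CD4-lineage factor ThPOK, rose with DAPT (0.74 ± 0.20) and apicidin (0.89 ± 0.24) and fell with shHdac3 (-1.09 ± 0.22). The part of cell stage in the values of Cd69, Klf2 and Foxo1 was not tested.

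Other activation genes were compared because CD69 is itself an activation antigen. With DAPT 5 of 9 tested genes rose and 4 did not pass, and with apicidin 4 of 9 rose and 5 did not pass. With shHdac3 3 of 8 rose, 2 fell and 3 did not pass. Medians were 0.24, 0.18 and 0.03 with DAPT, apicidin and shHdac3. As shares, 55.6%, 44.4% and 62.5% passed, beside 43.2%, 38.1% and 41.9% of all genes. Nr4a1, an immediate early gene of receptor signalling, rose with apicidin (0.72 ± 0.23) and measured -0.42 ± 0.28 with DAPT, and Egr1 measured 0.11 ± 0.22 and 0.15 ± 0.17 with the inhibitors and fell with shHdac3 (-0.99 ± 0.22). Cd5, whose level tracks T cell receptor signalling, rose with DAPT (0.75 ± 0.14) and shHdac3 (0.36 ± 0.12) and measured -0.30 ± 0.13 with apicidin. Dusp5, a phosphatase of ERK, rose with DAPT (0.26 ± 0.11) and apicidin (0.64 ± 0.11).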

How the data were processed

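The 12 libraries were assigned to groups from the submitters' sample titles. The authors deposited 1 table per experiment with 4 signal columns, 1 per library, whose headers name the library and no unit. Their values were taken as normalized reads. Per the file headers, the tables also hold the authors' mean signal, log2 fold change, test score and p-values. In the deposited signal columns, dividing by the value of 1 read gave whole reads for 100% of entries (within 1e-06). Every per-library column was used. The submitters' processing notes name mm9, FastQC, Bowtie2, TopHat and DESeq2, without versions; which program counted reads, and with what annotation and strandedness, is not stated in the sources used here.

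The members and gene lists were chosen with earlier results of these data known. limma 3.58.1 (R 4.3.3) with an intensity trend was run on log2(value + 1) after keeping genes that reached 10 in 2 or more of a comparison's 4 libraries, two-sided, with no covariates, and tested on simulated data. The pseudocount understates changes of low genes. Differences between responses used all 12 libraries with size factors recomputed over recovered reads. Alternatives were pseudocounts of 0.5 and 5, no filter, a filter at 50, upper-quartile and TMM factors, edgeR 4.0.16 quasi-likelihood on recovered reads (5570, 4765 and 5314 genes called, against 5546, 4746 and 5228), the authors' test, a replicate block and leaving out each library. Named genes are the 6 members, up to 4 of the genes that changed most and passed per list, all S1P receptors, the 2 genes most like each member, and the nearest tested neighbours; genes that the rule names but the text does not are not reported here. Exon lengths are from GENCODE M21 (GRCm38). Exact ratio intervals are binomial at 95% and cover counting error only.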

Additional observations from a re-analysis of the deposited data

Results flagged for a closer look

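The responses of 4 genes differed between treatments by a direct test of the difference (limma over 12 libraries, adjusted over 12254 genes), which marked 7 values for a closer look. For Klf2, the DAPT response exceeded the apicidin response by 1.15 and the shHdac3 response by 2.23 on the log2 scale. Against its own controls Klf2 moved both ways, passing upward with DAPT and downward with shHdac3, and it had 9 to 87 reads per library. For Cd69, the DAPT response exceeded the shHdac3 response by 1.04, and the apicidin response exceeded it by 1.45. For Foxo1, the DAPT response minus the apicidin response was -0.82, and apicidin minus shHdac3 was 0.66. For Cxcr4, apicidin minus shHdac3 was -0.15, while the change with apicidin (-0.05) and that with shHdac3 (0.10) did not pass on their own. In all 7 values, treatment cannot be told apart from experiment.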

How the results depend on the processing

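Across the settings tried, the rises of Cd69 with DAPT and apicidin, of Klf2 with DAPT and of Foxo1 with apicidin kept their direction and passed, and so did the differences of Cd69 and Klf2 between DAPT and shHdac3, of Cd69 and Foxo1 between apicidin and shHdac3, and of Foxo1 between DAPT and apicidin. A filter at 50 left Klf2 out of the DAPT fit and of the differences. With upper-quartile factors, the log2 difference of Cxcr4 with DAPT was 0.10 and passed, that of Foxo1 with shHdac3 was 0.13 and did not pass, the Cxcr4 difference between DAPT and shHdac3 turned to 0.0098 from -0.05, and that between apicidin and shHdac3 was -0.12 and did not pass. The same factors put the share of higher calls with shHdac3 at 43.5% instead of 53.8%, with DAPT at 56.5% instead of 46.6%, and for DAPT minus shHdac3 at 54.7% instead of 45.3%. TMM factors gave 0.10 for Cxcr4 with shHdac3, which passed. Without the filter, Klf2 (-0.73) and Foxo1 (0.17) did not pass with shHdac3. In the authors' deposited table, 2465 genes passed with apicidin and 2961 with shHdac3, against 4746 and 5228, and neither Klf2 (-0.75) nor Foxo1 (0.17) passed with shHdac3. With a pseudocount of 5, the Klf2 difference was 0.88 between DAPT and apicidin and did not pass, and 1.01 between apicidin and shHdac3 and passed. For Ccr7 with shHdac3, 2.63 by edgeR and 2.29 with a pseudocount of 0.5 did not pass. The cause of these changes was not tested.

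Leaving out 1 library gave -0.068 to 0.11 for Foxo1 with DAPT (reversed without the first DMSO library) and -0.45 to 0.99 for Ccr7 with DAPT (-0.45 without the second DAPT library, -0.21 without the first DMSO library). For Ccr7 it gave 1.74 to 2.54 with apicidin and 1.27 to 2.20 with shHdac3. It gave 0.049 to 0.63 for Klf2 with apicidin (0.049 without the second apicidin library), and -0.99 to -0.47 for Klf2 and 0.11 to 0.24 for Foxo1 with shHdac3. The Klf2 difference between DAPT and apicidin ranged from 0.60 to 1.70 and was lost without either DAPT library, the second DMSO library of the DAPT experiment (0.60), the first apicidin library or the second DMSO library of the apicidin experiment. The Klf2 difference between apicidin and shHdac3 ranged from 0.79 to 1.37 and passed without the first apicidin, the second DMSO, the second shHdac3 or the second scrambled library. The Cxcr4 difference between apicidin and shHdac3 ranged from -0.17 to -0.13 and was lost without either apicidin library, the second DMSO library, either shHdac3 library or the second scrambled library.

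Same-numbered libraries of treated and control groups correlated at 0.02, 0.04 and 0.01 in their deviations, so the replicate numbers were not taken as pairs. With the number as a replicate block, 5978, 4811 and 5327 genes passed with DAPT, apicidin and shHdac3, and the Klf2 difference between apicidin and shHdac3 (1.08) passed. Few reads limit what can be said of Ccr7 and S1pr1, which held at most 14 and 3 reads in a library.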

Other observations

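Other gene groups act downstream of the trafficking receptors. Of the G protein and desensitization genes, 8 of 18 tested rose and 3 fell with DAPT (median log2 difference 0.11), 5 rose and 8 fell of 18 with apicidin (-0.08), and 5 rose and 5 fell of 19 with shHdac3 (0.01). Rgs2 rose with each treatment (0.88 ± 0.06, 0.16 ± 0.06 and 1.16 ± 0.05), Rgs10 fell with each (-0.36 ± 0.04, -0.45 ± 0.05 and -0.62 ± 0.05), and Rgs16, a regulator that shortens Gi signals, fell with apicidin (-1.12 ± 0.41) and shHdac3 (-1.59 ± 0.31). Grk4, a receptor kinase, rose with DAPT (0.21 ± 0.08) and apicidin (0.58 ± 0.09). Of 14 migration genes, 9 rose and 2 fell with DAPT (0.19), 6 rose and 1 fell with apicidin (0.09), and 7 rose and 7 did not pass with shHdac3 (0.10). Of the G protein and desensitization genes 61.1%, 72.2% and 52.6% passed, and of the migration genes 78.6%, 50% and 50%. Over all genes the shares were 43.2%, 38.1% and 41.9%. Ptk2b, the focal adhesion kinase PYK2, rose with DAPT (0.79 ± 0.15) and apicidin (1.06 ± 0.13). Stk4, the MST1 kinase needed for thymic exit, rose with all 3 treatments (0.52 ± 0.04, 0.27 ± 0.04 and 0.37 ± 0.04), Arhgef1 rose with DAPT (0.37 ± 0.04) and apicidin (0.31 ± 0.04), and Tagap fell with apicidin (-0.38 ± 0.05).

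Cd69 lies in a cluster of C-type lectin genes. Of 11 lectin genes found, 3 of 6 tested rose with DAPT (0.52), 2 of 5 rose with apicidin (0.25) and 2 of 6 fell with shHdac3 (-0.26), while the rest did not pass. As shares, 50%, 40% and 33.3% passed, beside 43.2%, 38.1% and 41.9% of all genes. Clec2d rose with DAPT (1.03 ± 0.14) and apicidin (0.48 ± 0.12) and fell with shHdac3 (-0.35 ± 0.11). Clec12a, the nearest tested gene on 1 side of Cd69, had means of 12.3 with DAPT against 1.52 normalized reads; it is counted among the rises but reached the filter through the DAPT libraries alone, so it had to differ to be tested. The gene 2310001H17Rik, on the other side, passed with none (0.86 ± 0.37, 0.34 ± 0.36 and 0.64 ± 0.50). Beside Klf2, Ap1m1 measured -0.09 ± 0.04 and 0.02 ± 0.05 with DAPT and shHdac3 and fell with apicidin (-0.30 ± 0.05), and Eps15l1 passed with none. Beside Foxo1, Maml3 measured -0.12 ± 0.07 and Gm20750 0.02 ± 0.25 with apicidin.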
